A study of Mus musculus with 8 samples.

Results

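The genes described here encode proteins that coat, fuse, bud and break down lipid droplets, and there are 10 of them among the 22923 gene symbols in the files. They were taken by name: the perilipins Plin2, Plin4 and Plin5, the CIDE genes Cidea, Cideb and Cidec, the lipase gene Pnpla2 with its inhibitor G0s2, and the FITM genes Fitm1 and Fitm2. Each of the 10 had 1 row in every file. RNA came from livers of C57BL/6 mice in 4 groups, given here as KO (Xbp1-/-, lacking Xbp1 in the liver) on a high-fat diet, KO on chow, flox controls (Xbp1flox) on a high-fat diet and flox controls on chow. The high-fat diet came with a high-fructose corn syrup equivalent and lasted 4 weeks. Each group of 4 mice was pooled into 2 libraries and is represented by 1 RPKM value per gene (reads scaled to transcript length and to the mapped reads of the library), so the spread between libraries is unknown and no difference below has a replicate check or a p-value. The sources used here do not give the promoter that drove the deletion or the age and sex of the mice.

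A hepatocyte stores surplus fatty acids as triglyceride in lipid droplets, which bud from the endoplasmic reticulum (ER) into the cytosol. FITM proteins sit in the ER membrane and aid budding, perilipins cover the droplet surface and limit the access of lipases, and CIDE proteins move lipid between touching droplets. Adipose triglyceride lipase, the product of Pnpla2, makes the first cut in a stored triglyceride, the protein of Abhd5 activates it, and the G0S2 protein binds and blocks it. Several of these genes, Plin2, Cidec and G0s2 among them, are known to be raised in fatty liver and to respond to the lipid-activated receptors PPARA and PPARG. XBP1 acts in the unfolded protein response and also drives hepatic genes of lipid synthesis.

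The values turned on G0s2, Cidec and Fitm1, the 3 genes whose KO change on the high-fat diet and on chow differed past the threshold defined below. Their promoter windows (250 bases before to 50 after the start site, RefSeq, build GRCm38.p6) are shown with that of Plin2, the most abundant perilipin. Capitals mark every match on either strand to 5 motifs: AGGTCA (nuclear receptor core), 2 copies of AGGTCA with any 1 base between them (the direct repeat bound by PPARs), CACGTG (E-box), CCACG (the XBP1 box of the ER stress response element) and TGACGTGG (unfolded protein response element). The repeat contains the single core, and TGACGTGG contains CCACG read on the reverse strand.
G0s2, chr1:193273139-193273438, minus strand: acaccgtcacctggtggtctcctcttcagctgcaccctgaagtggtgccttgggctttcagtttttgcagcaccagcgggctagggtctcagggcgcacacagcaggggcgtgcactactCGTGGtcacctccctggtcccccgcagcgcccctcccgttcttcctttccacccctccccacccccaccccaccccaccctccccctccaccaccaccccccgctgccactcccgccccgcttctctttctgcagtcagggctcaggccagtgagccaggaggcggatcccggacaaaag
Cidec, upstream start, chr6:113435711-113436010, minus strand: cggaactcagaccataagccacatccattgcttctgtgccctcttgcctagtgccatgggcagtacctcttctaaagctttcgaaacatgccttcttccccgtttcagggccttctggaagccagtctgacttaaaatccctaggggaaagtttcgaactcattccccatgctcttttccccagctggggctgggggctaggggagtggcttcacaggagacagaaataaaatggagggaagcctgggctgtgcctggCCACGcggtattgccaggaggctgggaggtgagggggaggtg
Cidec, downstream start, chr6:113434715-113435014, minus strand: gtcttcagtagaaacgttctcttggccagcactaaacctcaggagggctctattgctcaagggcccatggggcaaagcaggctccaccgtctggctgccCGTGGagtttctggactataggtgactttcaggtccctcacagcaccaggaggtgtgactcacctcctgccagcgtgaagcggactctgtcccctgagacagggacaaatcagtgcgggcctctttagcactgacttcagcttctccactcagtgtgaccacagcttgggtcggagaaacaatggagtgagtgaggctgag
Fitm1, chr14:55575424-55575723, plus strand: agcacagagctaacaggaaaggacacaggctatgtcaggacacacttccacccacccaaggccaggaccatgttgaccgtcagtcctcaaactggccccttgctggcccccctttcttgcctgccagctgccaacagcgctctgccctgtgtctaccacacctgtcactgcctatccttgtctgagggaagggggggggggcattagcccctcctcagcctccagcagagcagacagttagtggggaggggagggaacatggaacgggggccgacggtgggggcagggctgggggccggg
Plin2, chr4:86670010-86670309, minus strand: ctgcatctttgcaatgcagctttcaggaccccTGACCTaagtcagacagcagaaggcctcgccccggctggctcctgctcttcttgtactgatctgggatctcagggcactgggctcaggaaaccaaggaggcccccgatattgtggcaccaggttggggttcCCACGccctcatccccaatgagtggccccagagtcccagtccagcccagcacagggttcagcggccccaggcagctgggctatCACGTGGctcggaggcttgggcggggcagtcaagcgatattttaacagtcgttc
The G0s2 window held 1 match, CCACG on the reverse strand, 130 bases before the start site. Each Cidec window also held 1 match to CCACG, beginning at base 9 of the transcript for the upstream start and 151 bases before the downstream one. The Fitm1 window held no match to these letters. The Plin2 window held AGGTCA on the reverse strand 218 bases before the start, CCACG 87 bases before it, and CACGTG from 4 bases before it, where CCACG on the reverse strand overlaps the E-box. Of 32851 windows in the table, 32.8% held CCACG, 16.3% AGGTCA, 7.15% CACGTG, 0.676% TGACGTGG and 0.0396% the repeat, and no window of the 9 genes found in the table held either of the last 2. A match is a stretch of letters and not a shown binding site. The gene values join all transcripts of Cidec, so the 2 starts cannot be told apart.

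The target of the deletion was checked first. Xbp1 stood at 34.1 RPKM in KO high fat, 44.2 RPKM in KO chow, 90.7 RPKM in flox high fat and 112 RPKM in flox chow, so that KO livers held 37.6% of the flox value with the high-fat diet and 39.6% with chow. In whole liver, fewer cells of a type and less RNA per cell cannot be told apart. The deposited values summed to 367414 RPKM in KO high fat, 461392 in KO chow, 461725 in flox high fat and 513694 in flox chow. Because the KO high-fat sum was the lowest, changes in that group depend on how groups are scaled, and the median of all genes is given beside those of the members. In the median rescaling the groups were set to a median log2 ratio of 0, and in the sum rescaling to equal sums with the 50 most abundant genes left out. A change below is log2((a + 1)/(b + 1)) in RPKM. Adding 1 makes the change of a low gene look smaller than it is, and the words rose and fell are kept for a change of at least 1 on that log2 scale. The difference between the KO change on the high-fat diet and that on chow, which equals the difference between the diet change in KO and in flox livers, is called the interaction.

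Levels per length differed widely among the 10 genes, with Cideb and Plin2 the most abundant. Plin2 held 89.6% of the summed RPKM of the 5 perilipin genes Plin1 to Plin5 in KO high fat, 88.3% in KO chow, 91.5% in flox high fat and 89.1% in flox chow. Cideb held between 98.6% and 99.7% of the summed CIDE level in the 4 groups. Plin4 and Cidea stayed under 1 RPKM in every group and so entered no count of genes past the threshold, and the other 8 passed this filter. Of the 10351 genes that passed it, Cideb ranked between 256 and 293 by level and Cidec between 6544 and 9733.

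**Figure D1:**
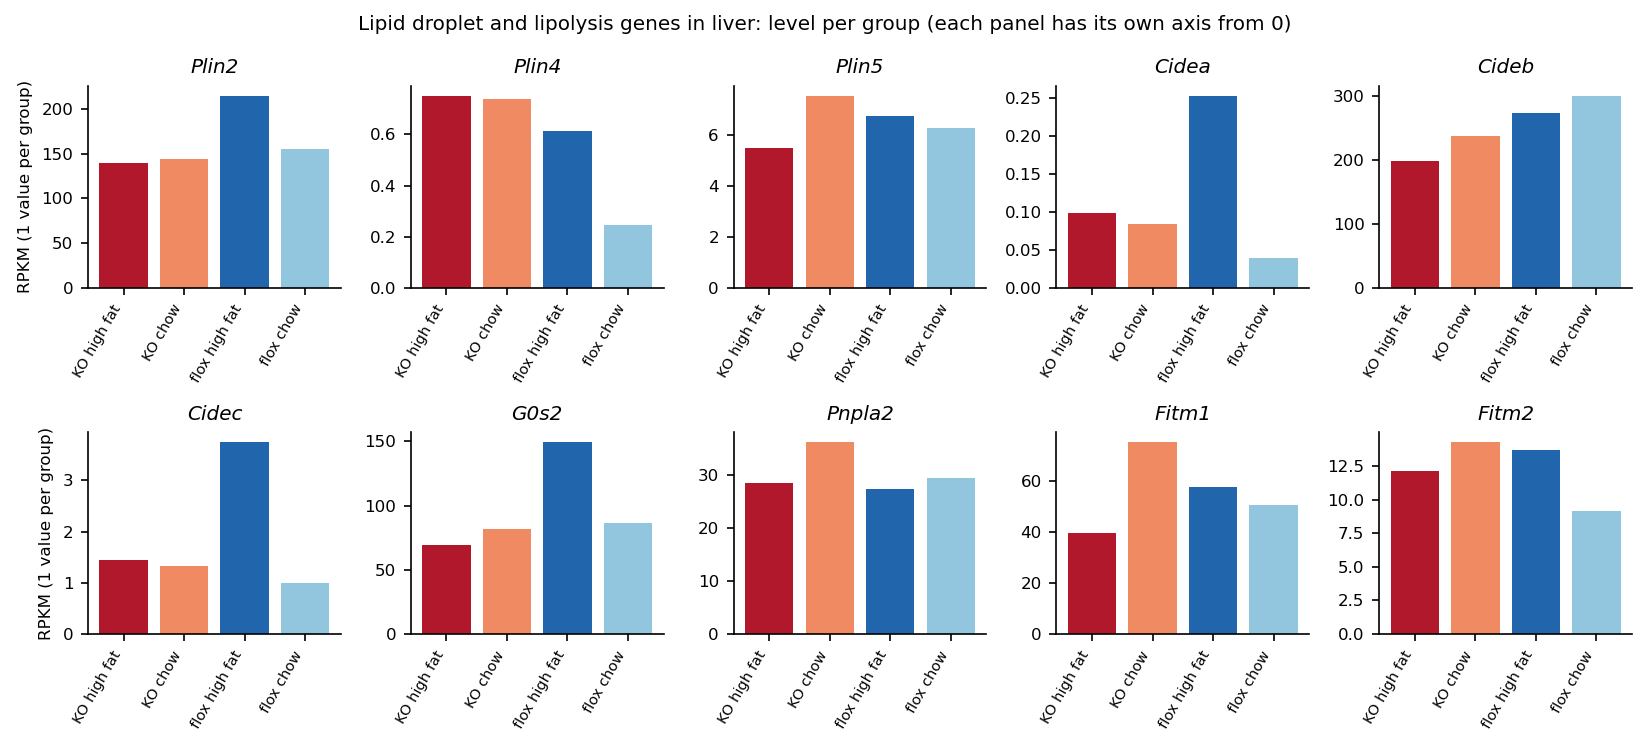
Level of each gene in RPKM (vertical axis, from 0, its own scale in each panel) in KO high fat, KO chow, flox high fat and flox chow livers; each bar is the 1 deposited value of a group, so there are no error bars. Plin2, Cidec, G0s2 and Cidea have their highest bar in flox high fat, and Fitm1 has its highest bar in KO chow. Cidea is under 1 RPKM in every group.

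Among the coat proteins, Plin2 was highest in flox livers on the high-fat diet. The perilipin of hepatocyte droplets, whose protein is stable only when bound to lipid, stood at 140 RPKM in KO high fat, 144 RPKM in KO chow, 215 RPKM in flox high fat and 155 RPKM in flox chow. As deposited, the 3 other groups lay close together, between 140 and 155 RPKM. The KO change was -0.61 on the high-fat diet and -0.10 on chow, both under the threshold. The high-fat value was -0.33 under the median rescaling and -0.31 under the sum rescaling, and the chow value -0.02 and 0.05. The diet change of Plin2 in KO livers was -0.04 as deposited and turned to 0.24 and 0.25 under the median and sum rescalings. In flox livers it was 0.47 as deposited, and 0.55 and 0.60 under the rescalings. Plin5, the perilipin of oxidative tissues that tethers droplets to mitochondria, moved over a narrow range, with 5.48 RPKM in KO high fat, 7.53 RPKM in KO chow, 6.73 RPKM in flox high fat and 6.26 RPKM in flox chow. Plin4, a coat protein best known from fat and muscle, was listed at 0.752 RPKM in KO high fat, 0.738 RPKM in KO chow, 0.615 RPKM in flox high fat and 0.247 RPKM in flox chow. Its lowest value was that of flox chow, at a level where the number of reads behind it is unknown. Plin4 and Plin5 are neighbours on mm10 chromosome 17, Plin4 at 56100591 to 56109803 and Plin5 at 56111601 to 56117596, on the same strand with 1797 bases between them, and their order over the groups was not the same.

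The CIDE genes did not all share an order over the groups. Cidec encodes the fusion protein FSP27, which makes droplets large and appears in steatotic liver, and it rose with the high-fat diet in flox livers and not in KO livers. It stood at 1.44 RPKM in KO high fat, 1.33 RPKM in KO chow, 3.74 RPKM in flox high fat and 0.989 RPKM in flox chow. In RPKM, the high-fat level was 1.08 times the chow level in KO livers and 3.79 times in flox livers. The diet change was 0.06 in KO and 1.25 in flox livers, and the interaction of -1.19 was past the threshold. All 4 values were low, and with a pseudocount of 5 RPKM the flox diet change was 0.55 and the interaction -0.52. Cideb, the liver form, which loads lipid onto very-low-density lipoproteins, ran in another order, with 198 RPKM in KO high fat, 237 RPKM in KO chow, 274 RPKM in flox high fat and 300 RPKM in flox chow. KO lay under flox on each diet, by changes of -0.47 on the high-fat diet and -0.34 on chow as deposited. These were -0.18 and -0.26 under the median rescaling and -0.16 and -0.19 under the sum rescaling. Cideb (mm10 chromosome 14, 55754050 to 55758458) shares 1136 of its 1488 annotated exon bases with Nop9 on the opposite strand, and the sources used here do not say whether counting used the strand. Nop9, under the symbol 2610027L16Rik, was listed at 3.61 to 4.94 RPKM. Cidea, the form of brown fat, was listed at 0.0981 RPKM in KO high fat, 0.0839 RPKM in KO chow, 0.254 RPKM in flox high fat and 0.0393 RPKM in flox chow. Its 4 values had the same order over the groups as those of Cidec, at a level where the number of reads behind them is unknown.

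The lipase and its inhibitor did not move together. Pnpla2, the gene of adipose triglyceride lipase, stood at 28.5 RPKM in KO high fat, 36.1 RPKM in KO chow, 27.3 RPKM in flox high fat and 29.3 RPKM in flox chow, and its 4 pairwise changes lay between -0.33 and 0.29 as deposited. KO against flox, the change on the high-fat diet was 0.06 as deposited and 0.34 and 0.36 under the median and sum rescalings, and that on chow was 0.29, 0.37 and 0.44. The diet change in KO livers was -0.33 as deposited and -0.05 under both rescalings. G0s2, its inhibitor, stood at 69.7 RPKM in KO high fat, 81.7 RPKM in KO chow, 149 RPKM in flox high fat and 86.1 RPKM in flox chow. The flox high-fat value stood alone, and the other 3 groups lay between 69.7 and 86.1 RPKM. G0s2 fell in KO livers on the high-fat diet (log2 change -1.09), and its interaction was -1.01. The KO change on chow was -0.08, and 0.01 and 0.07 under the median and sum rescalings. Under the median rescaling the KO change on the high-fat diet was -0.81 and the interaction -0.81, both under the threshold. Under the sum rescaling these were -0.79 and -0.86. G0s2 (mm10 chromosome 1, 193272161 to 193273217) lies inside the span of Lamb3 on the opposite strand, shares no exon base with it, and Lamb3 was under 1 RPKM in every group.

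Ratios of genes within a group do not depend on scaling between groups. G0s2 stood at 2.44 times the Pnpla2 level in KO high fat, 2.26 times in KO chow, 5.47 times in flox high fat and 2.94 times in flox chow, all per length. The ratio of Plin2 to Pnpla2 was 4.91 in KO high fat, 4.00 in KO chow, 7.87 in flox high fat and 5.29 in flox chow. Both ratios were highest in flox livers on the high-fat diet. Abhd5, the activator of the lipase, stood at 0.236 times the Pnpla2 level in KO high fat, 0.230 in KO chow, 0.274 in flox high fat and 0.264 in flox chow. Ratios to 8 hepatocyte markers, each in turn, depended on the marker for some genes. The Cidec ratio was highest in flox high fat with 8 of 8 markers, that of G0s2 with 6 and that of Plin2 with 5. Over Apoa1, a lipoprotein gene, G0s2 stood at 0.0145 in KO high fat, 0.0112 in KO chow, 0.0133 in flox high fat and 0.00710 in flox chow, so KO high fat was highest. Over Apob it was highest in KO chow, at 0.336 in KO high fat, 0.542 in KO chow, 0.413 in flox high fat and 0.380 in flox chow. The Fitm1 ratio was highest in KO chow with 8 of 8. All ratios were chosen after the values had been seen.

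**Figure D2:**
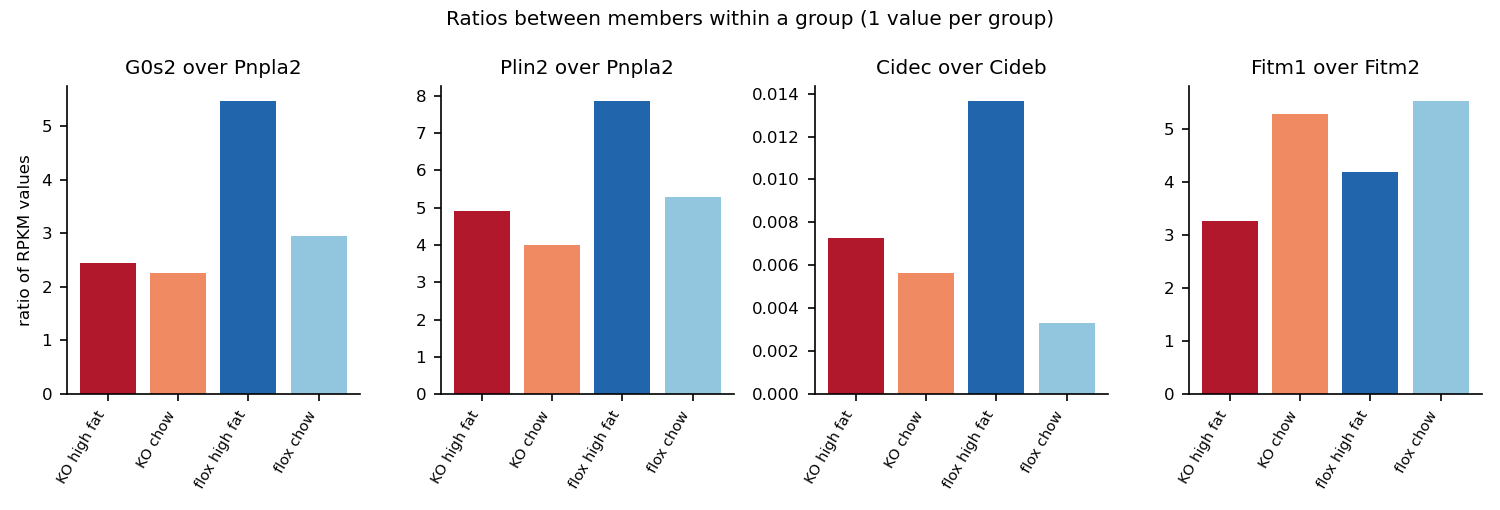
Ratio of 2 RPKM values within a group (vertical axis, from 0, its own scale in each panel) for G0s2 over Pnpla2, Plin2 over Pnpla2, Cidec over Cideb and Fitm1 over Fitm2; each bar is 1 group, from KO high fat on the left to flox chow on the right, with no error known. The first 3 ratios are highest in flox high fat, and G0s2 over Pnpla2 is 5.47 there against 2.94 in flox chow.

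The FITM genes were both highest in KO livers on chow as deposited, although Fitm2 was higher in KO high fat than in KO chow by 0.05 on the log2 scale under both rescalings. Fitm1, which is best known from skeletal muscle, stood at 39.5 RPKM in KO high fat, 75.4 RPKM in KO chow, 57.6 RPKM in flox high fat and 50.5 RPKM in flox chow. As deposited, KO high fat was the lowest group and KO chow the highest, the KO change was -0.53 on the high-fat diet and 0.57 on chow, and the interaction was -1.10. Under the median rescaling the KO change was -0.25 on the high-fat diet and 0.65 on chow, and under the sum rescaling -0.23 and 0.71. Flox chow, not KO high fat, was then the lowest group, with a diet change in flox livers of 0.27 and 0.31. The interaction was -0.90 under the median rescaling and -0.94 under the sum rescaling. Fitm2, the widely expressed form, stood at 12.1 RPKM in KO high fat, 14.3 RPKM in KO chow, 13.7 RPKM in flox high fat and 9.13 RPKM in flox chow, with an interaction of -0.76. The ratio of Fitm1 to Fitm2 was 3.26 in KO high fat, 5.28 in KO chow, 4.20 in flox high fat and 5.53 in flox chow. Fitm1 (mm10 chromosome 14, 55575617 to 55576954) shares 109 of its 971 exon bases with the antisense gene Gm15932, which has no entry of its own in the files. Psme1, which starts 1168 bases beyond the end of Fitm1 on the same strand, had another order over the groups, with 78.3 RPKM in KO high fat, 104 RPKM in KO chow, 71.5 RPKM in flox high fat and 101 RPKM in flox chow. Of 5 skeletal muscle markers, Ckm and Tnnt3 were listed at 0 in all 4 groups and the 5 summed to 0.502 RPKM in KO high fat, 0.370 in KO chow, 0.302 in flox high fat and 0.773 in flox chow.

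On chow, KO against flox, 0 of the 10 genes passed the threshold, where 0.252% of 10322 genes rose and 1.37% fell. The median change of the 10 was 0.23, beside -0.02 for all genes, with a range of -0.34 for Cideb to 0.59 for Fitm2. The 3252 genes at 10 RPKM or more in every group had a median of -0.06. Medians of the 10 include Plin4 and Cidea, which the counts and medians of all genes leave out by the filter. The 8 genes that entered also had a median of 0.23. On the high-fat diet, KO against flox, 1 of the 10 fell, G0s2, and 0 rose, where 1.07% of 10327 genes rose and 1.86% fell. The median of the 10 was -0.36, beside -0.13 for all genes, and Cidec (-0.96) lay just under the threshold. The 8 genes that entered had a median of -0.50. Among the 3252 genes at 10 RPKM or more in every group the median was -0.27, with 84.3% negative. Under the median rescaling the median of the 10 was -0.17, beside 0.10 for all genes, and under the sum rescaling -0.16, beside 0.12, with Cidec at -0.77 in both. Of all genes past it in this comparison 36.6% were higher in KO, against 66.5% under the median rescaling and 68.1% under the sum rescaling.

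With the high-fat diet against chow in KO livers, 0 of the 10 passed the threshold, where 0.668% of 10328 genes rose and 0.794% fell. Their median change was -0.22, beside -0.11 for all genes, and turned to 0.05 under both rescalings, beside 0.12 for all genes. As deposited, the 8 genes that entered had a median of -0.24. The 3252 genes at 10 RPKM or more in every group had one of -0.27, with 84.7% negative. Among the 10, Fitm1 had the lowest value (-0.91). The share of calls that were higher was 45.7%, and 73.6% and 73.9% under the 2 rescalings. In flox livers the same contrast had 1 rise among the 10, Cidec, and 0 falls, where 0.213% of 10322 genes rose and 0.426% fell. Their median change was 0.32, beside -0.01 for all genes, and the share of calls that were higher was 33.3%, and 44.6% and 47.0% under the rescalings. The median was 0.33 for the 8 genes that entered and -0.09 for the 3252 genes at 10 RPKM or more in every group. These comparisons share groups with those between genotypes, since each group enters a pair of them.

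The interaction was negative for all 10 genes, from -0.13 for Cideb to -1.19 for Cidec, with a median of -0.50. The 10 include Plin4 and Cidea, which did not pass the filter, and the 8 that entered had a median of -0.64. Among all 10319 genes the median was -0.10 and 67.9% were negative. Among the 3252 genes at 10 RPKM or more in every group the median was -0.18 and 77.2% were negative. Past the threshold were 3 of the 10, Cidec, Fitm1 and G0s2, all negative, where 0.572% of all genes were as low and 0.659% as high. Of all calls 53.5% were positive, and 78.9% and 75.0% under the rescalings. Under the median rescaling 9 of the 10 genes were negative, with a median of -0.31, beside 37.0% of all genes and a median of 0.07, and Cideb turned to 0.08. Under the sum rescaling 9 of the 10 were negative, Cideb again the exception at 0.03, with a median of -0.35, beside 44.5% and a median of 0.03 for all genes. Under either rescaling only Cidec of the 3 stayed past the threshold. G0s2 and Fitm1 have short transcripts (871 and 971 bases), and genes with transcripts of over 600 and up to 1000 bases had a median interaction of -0.14 (414 genes). Their median diet change was -0.36 in KO livers (417 genes) and -0.20 in flox livers (414 genes).

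**Figure D3:**
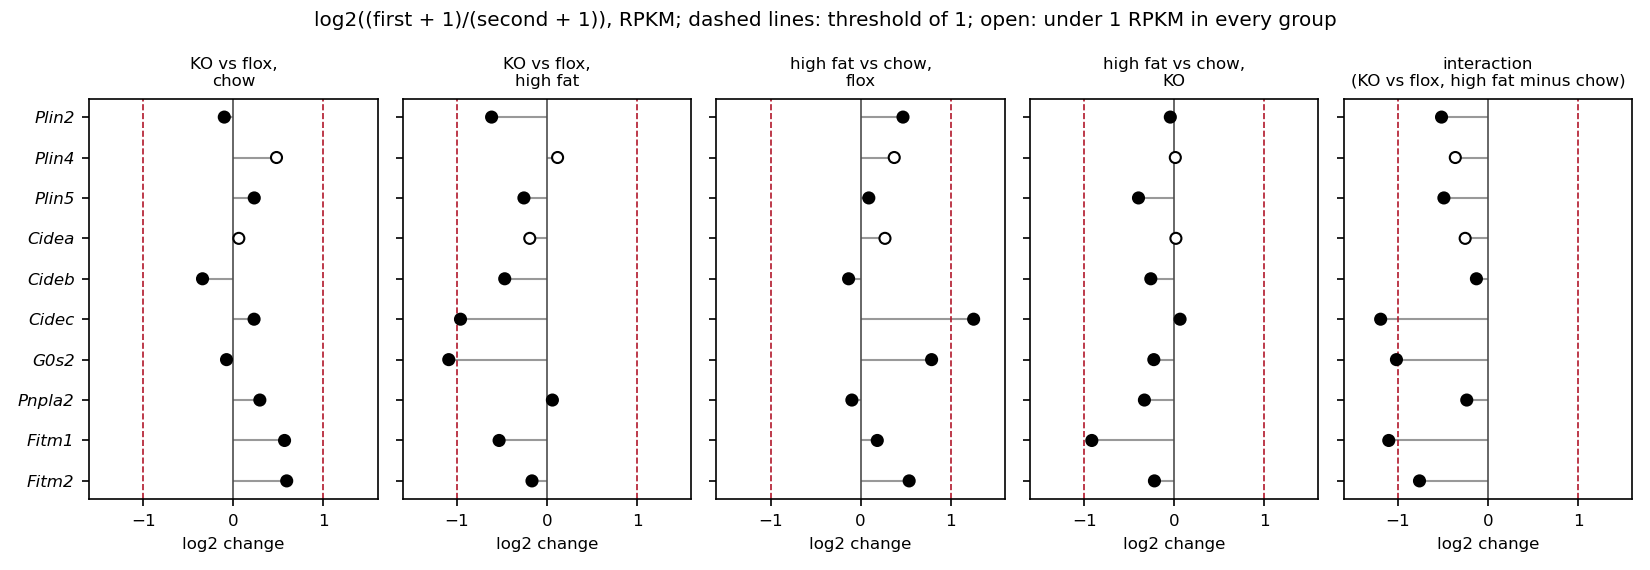
log2((a + 1)/(b + 1)) of RPKM values (horizontal axis) for the 10 genes (rows) in KO against flox on each diet, high fat against chow in each genotype, and the interaction; dashed lines mark the threshold of 1 and open points are genes under 1 RPKM in every group. All 10 points of the interaction lie left of 0, with Cidec, G0s2 and Fitm1 past -1.

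**Figure D4:**
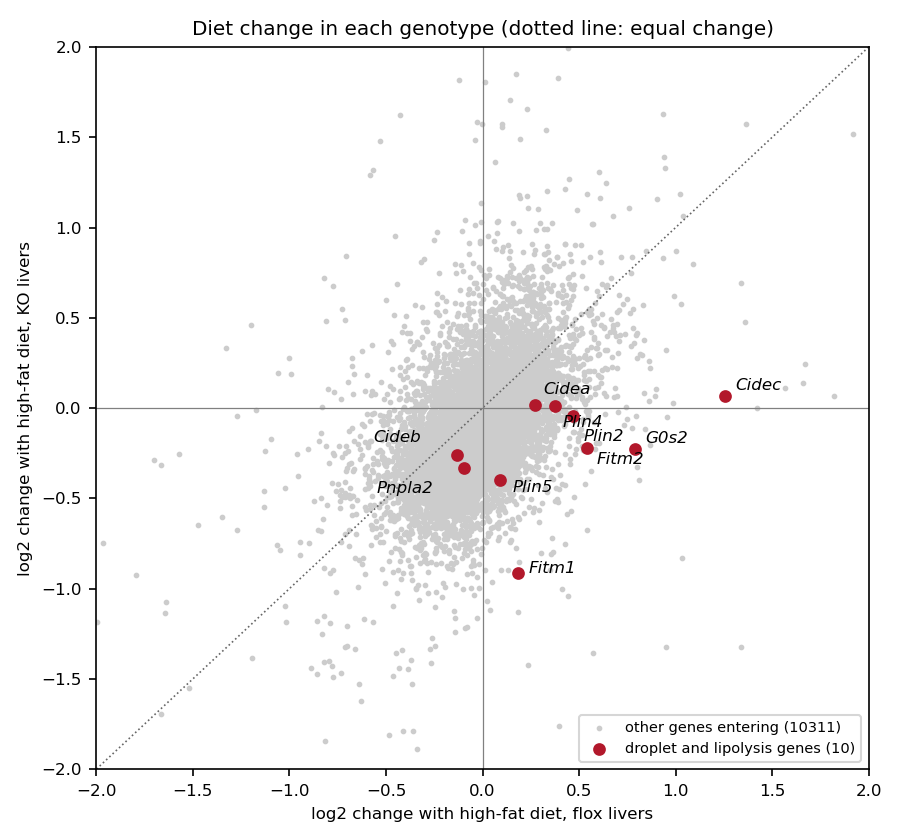
log2 change with the high-fat diet in KO livers (vertical axis) against that in flox livers (horizontal axis) for the 10 genes (red, labelled) and the other genes entering the interaction (grey); the dotted line marks an equal change in both, and 29 genes lie outside the axes. The 10 genes lie under the line, Cidec and G0s2 furthest to the right and Fitm1 lowest.

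Other genes of droplets and lipolysis were read from a list of 21, of which 20 had an entry of their own and 18 could enter each comparison. KO against flox on the high-fat diet, 0 rose and 2 fell (median -0.44), and on chow 0 rose and 2 fell (median -0.14). Both times these were Ces1d, a triglyceride hydrolase of the liver, and Dgat2, which adds the final fatty acid to make triglyceride. All genes had medians of -0.13 and -0.02, and 1.86% and 1.37% of them fell. Genes at 10 RPKM or more in every group had medians of -0.27 and -0.06. The values of this list are given as deposited, without rescaling. Ces1d stood at 42.6 RPKM in KO high fat, 30.3 RPKM in KO chow, 299 RPKM in flox high fat and 271 RPKM in flox chow, although its reads may be split among near-identical Ces1 genes. Dgat2 stood at 46.8 RPKM in KO high fat, 37.3 RPKM in KO chow, 238 RPKM in flox high fat and 239 RPKM in flox chow. The 2 genes were thus low in KO livers on both diets, an order unlike that of G0s2 and Cidec.

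With the diet 0 of the 18 passed the threshold in KO livers (median -0.19) and 0 in flox livers (median 0.01), and 0 passed it in the interaction (median -0.25). All genes had medians of -0.11, -0.01 and -0.10, and those at 10 RPKM or more in every group had -0.27, -0.09 and -0.18. Hsd17b11, a droplet-bound dehydrogenase, stood at 76.5 RPKM in KO high fat, 70.7 RPKM in KO chow, 150 RPKM in flox high fat and 93.2 RPKM in flox chow, with an interaction of -0.57. Mgll, which makes the last cut of lipolysis, stood at 39.8 RPKM in KO high fat, 47.6 RPKM in KO chow, 69.5 RPKM in flox high fat and 49.7 RPKM in flox chow, with an interaction of -0.73. Hilpda, another protein inhibitor of the lipase, had 1.22 RPKM in KO high fat, 1.497 RPKM in KO chow, 1.85 RPKM in flox high fat and 1.28 RPKM in flox chow. All 3 had their highest value in flox livers on the high-fat diet, as Plin2, Cidec and G0s2 did. They were named for the size of their interaction, so this shared order follows in part from that choice. In the rest of the 18, Rab18, Lipa, Plin3, Hsd17b13, Ldah and Ces1d were also highest there as deposited. Abhd5, Lipe, Aup1, Aadac, Bscl2, Faf2, Dgat1, Dgat2 and Tmem159 were not.

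**Figure D5:**
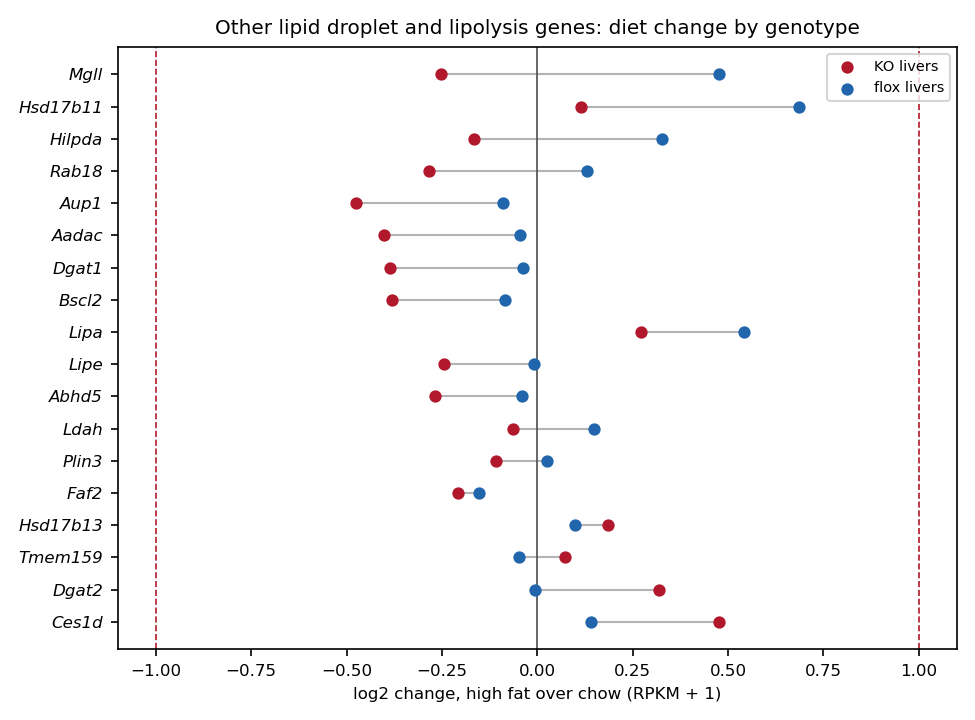
log2 change with the high-fat diet over chow (horizontal axis, RPKM + 1) of the 18 other droplet and lipolysis genes (rows, ordered by interaction) in KO livers (red) and flox livers (blue); the dashed lines mark the threshold of 1. No point passes it, and Mgll and Hsd17b11 have the widest gaps with flox to the right.

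Among 10 regulators of these genes, 1 passed the threshold between genotypes, Srebf1, the factor of fatty acid synthesis, which fell in KO livers on both diets. It stood at 32.4 RPKM in KO high fat, 35.2 RPKM in KO chow, 143 RPKM in flox high fat and 79.7 RPKM in flox chow (log2 change -2.11 on the high-fat diet and -1.16 on chow). The median of the 10 was -0.37 on the high-fat diet and -0.15 on chow, beside -0.13 and -0.02 for all genes. No regulator passed the threshold with the diet (medians -0.07 in KO and 0.15 in flox livers) or in the interaction (median -0.27). All genes had medians of -0.11, -0.01 and -0.10 there, and all these values are as deposited. Ppara, the fatty acid receptor of hepatocytes, stood at 38.8 RPKM in KO high fat, 28.8 RPKM in KO chow, 57.9 RPKM in flox high fat and 32.9 RPKM in flox chow. Creb3l3, an ER-anchored factor that acts with PPARA, stood at 70.5 RPKM in KO high fat, 101 RPKM in KO chow, 112 RPKM in flox high fat and 104 RPKM in flox chow. Pparg, which drives Cidec and Plin4 in fat, stood at 8.68 RPKM in KO high fat, 13.8 RPKM in KO chow, 7.004 RPKM in flox high fat and 7.40 RPKM in flox chow. Its highest value was in KO chow. The part of these regulators in the levels of the droplet genes was not tested.

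Profiles over the 4 groups were compared with those of 6073 other genes, by the distance between log2(RPKM + 1) values centred on each gene's mean. For G0s2 the nearest were Insig2 (distance 0.08), Glt1d1 (0.19) and Sec14l2 (0.19). For Cidec they were Rnf125 (0.20), 1810055G02Rik (0.31) and Mia2 (0.35). For Fitm1 they were Ndufb2 (0.17), Serpina12 (0.17) and Snhg8 (0.20). With 4 points a profile, close matches are easily found among so many genes.

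Markers of other cells, and of hepatocytes themselves, moved with the groups. Of 9 hepatocyte markers, Alb was listed at 0 in all groups, a value that may be a failed estimate, and the list summed to 12566 RPKM in KO high fat, 17388 in KO chow, 22620 in flox high fat and 25288 in flox chow. Hnf4a stood at 72.2 RPKM in KO high fat, 87.0 RPKM in KO chow, 97.5 RPKM in flox high fat and 95.4 RPKM in flox chow. The 8 hepatocyte markers that could enter had medians of -0.59 for KO against flox on the high-fat diet and -0.36 on chow. All genes had -0.13 and -0.02. On the high-fat diet 2 of the 8 fell, Apoa1 (-1.23) and Cps1 (-1.04), where 1.86% of all genes fell. On chow 0 fell, where 1.37% of all genes did. These marker values are given without rescaling, and the RPKM sum over all genes was also lowest in KO high fat. The 5 cholangiocyte markers summed to 109 RPKM in KO high fat, 42.5 in KO chow, 23.1 in flox high fat and 21.8 in flox chow. Most of each sum was Spp1, at 103 RPKM in KO high fat, 39.4 in KO chow, 20.6 in flox high fat and 19.7 in flox chow. The other cholangiocyte markers reached at most 2.01 RPKM (Epcam, KO high fat). The 7 macrophage markers summed to 162 RPKM in KO high fat, 88.8 in KO chow, 124 in flox high fat and 94.8 in flox chow. The 6 stellate cell markers summed to 149 RPKM in KO high fat, 119 in KO chow, 91.8 in flox high fat and 96.6 in flox chow. Most of each stellate sum was Dcn, at 130 RPKM in KO high fat, 108 in KO chow, 80.0 in flox high fat and 86.7 in flox chow. The part of these shifts in the levels of the 10 genes was not tested.

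Fat cells express Plin1, Plin4, Cidec and Cidea, so their defining markers were read beside these genes. Of 9 white adipocyte markers Lep was listed at 0 in all groups, and Adipoq, Retn and Plin1 were at most 0.0692 RPKM in every group. The list summed to 15.6 RPKM in KO high fat, 16.2 in KO chow, 28.9 in flox high fat and 18.8 in flox chow. The gap of flox high fat came from Cfd, complement factor D, at 0.193 RPKM in KO high fat, 0.257 RPKM in KO chow, 9.76 RPKM in flox high fat and 0.533 RPKM in flox chow, in the group where Cidec and Cidea were highest. Adipoq stood at 0 in KO high fat, 0.0329 RPKM in KO chow, 0.0259 RPKM in flox high fat and 0.0300 RPKM in flox chow, all close to 0. The part of fat cells in the levels of Cidec and Cidea was not tested. The brown fat gene Dio2 was listed at 0 in all groups and Ucp1 reached at most 0.0204 RPKM, and the 4 measured brown adipocyte markers summed to 3.84 RPKM in KO high fat, 5.26 in KO chow, 4.05 in flox high fat and 5.25 in flox chow.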

How the data were processed

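RNA was measured by sequencing in mouse liver. The authors deposited 1 RPKM value per gene and group, per the file headers. The submitters' processing notes name TopHat2 2.0.7, Cuffdiff 2.1.1 and the build mm10 without saying what each was used for. How the 2 libraries of a group were combined, and any scaling between them, is not given in the sources used here. Files were assigned to groups by name.

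Rows with a repeated symbol (158 of 22923 symbols) were summed. A gene was kept if any of the 4 groups reached 1 RPKM (10351 genes), a gene listed at 0 in a group was left out of comparisons with it, and log2 changes used a pseudocount of 1 RPKM. With 1 value a group there was no test. A gene was called past the threshold at an absolute log2 change of 1.

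The depth could not be had from the files. In genes with 1 transcript, low values times length lay within 0.05 of a whole number of steps, up to 5 steps, in 17.2% to 20.9% of cases, where an even spread would give 10%, too few to recover reads. No interval or floor is given.

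All 10 members are named. From the other lists, up to 4 genes with the largest absolute change per comparison could be named, plus values that bear on a member. The 3 nearest profiles are given for the 3 members with the largest range. The members and lists were chosen with earlier results of these data known. Symbols were matched through RefSeq synonyms, coordinates came from GENCODE release M21 (GRCm38, which mm10 denotes), and promoter windows from RefSeq. Python 3.11.15, numpy 2.4.6, pandas 2.3.3 and matplotlib 3.10.9 were used, and the steps were tested on simulated data. Alternatives are in the closing section.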

Additional observations from a re-analysis of the deposited data

Results flagged for a closer look

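Members were picked out where the interaction passed the threshold and the effect had opposite signs in the 2 strata. With 1 value a group, none of these differences was tested.

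G0s2 had an interaction of -1.01, with a diet change of -0.23 in KO and 0.79 in flox livers. The sign in KO livers turned positive (0.06) under both rescalings. Fitm1 had an interaction of -1.10, with a diet change of -0.91 in KO and 0.19 in flox livers, and a KO change of -0.53 on the high-fat diet (-0.25 and -0.23 under the median and sum rescalings) and 0.57 on chow. Cidec had an interaction of -1.19, with a KO change of -0.96 on the high-fat diet and 0.23 on chow.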

How the results depend on the processing

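The alternatives were pseudocounts of 0.1 and 5 RPKM, a filter of 5 RPKM or none, zeros kept, the highest of repeated rows, a 1.5-fold threshold, the median rescaling (over genes at 10 RPKM or more in each group) and the sum rescaling (the 50 most abundant genes left out). No paired analysis was possible because the files hold 1 value per group, and for the same reason no replicate could be left out. The rescalings moved the median of all genes by 0.23 and 0.25 for KO against flox on the high-fat diet, by 0.23 and 0.24 for the diet in KO livers, and by 0.17 and 0.13 for the interaction. The sum rescaling moved it by 0.12 for KO against flox on chow and by 0.10 for the diet in flox livers.

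Of the members, G0s2 was no longer past the threshold for KO against flox on the high-fat diet under either rescaling (-0.81 and -0.79), and in the interaction under either rescaling (-0.81 and -0.86) and a pseudocount of 5 (-0.98). Fitm1 was under it in the interaction under either rescaling (-0.90 and -0.94). Cidec was under it with a pseudocount of 5 (0.55 for the diet in flox livers, -0.52 in the interaction) and past it for KO against flox on the high-fat diet with a pseudocount of 0.1 (-1.32). No called change of a member turned its sign. The cause of these moves was not tested. Members that fell in KO on the high-fat diet numbered 2 with a pseudocount of 0.1, 0 under each rescaling and 3 at 1.5-fold, in place of 1. Those that rose with the diet in flox livers numbered 0 with a pseudocount of 5 or a filter of 5 RPKM, which Cidec does not pass, and 2 at 1.5-fold, in place of 1. Members past the threshold with a negative interaction numbered 1 with a pseudocount of 5 and under each rescaling, in place of 3. At 1.5-fold 1 member was higher in KO on chow and 1 lower with the diet in KO livers, in place of 0.

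Counts over all genes moved as follows. With a pseudocount of 0.1, 81 in place of 26 were higher in KO on chow, 231 in place of 111 in KO on the high-fat diet, 61 in place of 22 with the diet in flox and 189 in place of 69 in KO livers, and the interaction had 143 positive and 97 negative in place of 68 and 59. With a pseudocount of 5 these were 9, 37, 11, 30, 38 and 30, and the lower counts were 87 in place of 141 on chow, 119 in place of 192 on the high-fat diet and 29 in place of 44 with the diet in flox livers. A filter of 5 RPKM left 64 higher in KO on the high-fat diet. The median and sum rescalings gave 185 and 192 higher and 93 and 90 lower in KO on the high-fat diet, 131 and 133 higher and 47 and 47 lower (in place of 82) with the diet in KO livers, and 112 and 105 positive and 30 and 35 negative interactions. At 1.5-fold the higher and lower counts were 113 and 396 for KO on chow, 330 and 860 for KO on the high-fat diet, 127 and 173 for the diet in flox livers, 277 and 485 for the diet in KO livers, and 239 and 313 for the interaction.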

Other observations

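Targets of the lipid-activated receptors were read beside the droplet genes. Their changes are given as deposited, without rescaling. Calls close to the threshold may depend on the scaling, such as Acaa1b in the interaction (-1.01) and Fabp2 for KO against flox on chow (-1.05). Of 15 PPARA targets 3 rose with the high-fat diet in KO livers (median 0.25) and 0 in flox livers (median 0.58). The 3 were the fatty acid hydroxylase genes Cyp4a10 (1.56) and Cyp4a14 (1.29) and the thioesterase gene Acot2 (1.25), whose reads may be shared with close copies. Of all genes 0.668% rose with the diet in KO and 0.213% in flox livers. In flox livers Acaa1b (0.96), Fgf21 (0.93), Vnn1 (0.89) and Acot1 (0.85) lay under the threshold. Fgf21 was low, at 4.47 RPKM in KO high fat, 2.07 in KO chow, 1.24 in flox high fat and 0.174 in flox chow. KO against flox on the high-fat diet, Fgf21 (1.28) and Cyp4a14 (1.07) rose and Acaa1b (-1.24) fell (median -0.37), and on chow Fgf21 (1.39) rose and Cyp4a10 (-2.23) fell (median 0.06). Of all genes 1.07% rose and 1.86% fell on the high-fat diet, and 0.252% and 1.37% on chow. In the interaction 2 were past the threshold upward, Cyp4a14 (1.87) and Cyp4a10 (1.45), and 1 downward, Acaa1b (-1.01), with a median of -0.12. Of all genes 0.659% were as high and 0.572% as low. Acaa1b, a peroxisomal thiolase gene, stood at 387 RPKM in KO high fat, 401 RPKM in KO chow, 913 RPKM in flox high fat and 470 RPKM in flox chow, with its highest value in flox high fat, as for G0s2.

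Of 5 genes known as PPARG targets of fatty liver, 1 fell in KO livers on the high-fat diet (median -0.15) and 1 on chow (median -0.65), 1 rose with the diet in KO livers (median 0.48) and 1 in flox livers (median 0.32), and 0 passed the threshold in the interaction (median 0.03). Of all genes 1.86% and 1.37% fell in the 2 genotype comparisons, and 0.668% and 0.213% rose with the diet in KO and flox livers. Cd36, a fatty acid uptake protein, rose with the diet in KO livers (1.63), with 23.0 RPKM in KO high fat, 6.78 RPKM in KO chow, 23.0 RPKM in flox high fat and 11.6 RPKM in flox chow. Fabp2, a fatty acid binding protein, rose with the diet in flox livers (1.36) and fell in KO livers on both diets (-1.93 on the high-fat diet and -1.05 on chow), and it stood at 40.9 RPKM in KO high fat, 29.1 RPKM in KO chow, 159 RPKM in flox high fat and 61.3 RPKM in flox chow.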
